A study of Mus musculus with 24 samples.

Results

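The 10 genes described here encode subunits of the ionotropic glutamate receptors. They are the AMPA receptor genes Gria1, Gria2, Gria3 and Gria4, the NMDA receptor genes Grin1, Grin2a and Grin2b, and the kainate receptor genes Grik1, Grik2 and Grik5. They were taken by symbol from the 21553 genes with counts, and all 10 were among the 16627 genes that passed the filter on low counts. The splicing table held 41 exon events of these genes, of 54141 in all, and 149 of 160806 introns. RNA came from E14 mouse embryonic stem cells (ESCs), either wild type (WT) or slow/slow, and from their neural derivatives. In slow/slow cells both alleles of Polr2a, which encodes the largest subunit of RNA polymerase II, carry a change from arginine to histidine that slows transcript elongation. The slow/slow line was made from the WT line by successive rounds of gene targeting, so each genotype is represented by 1 cell line. Both genotypes were sampled at 4 stages, with 3 libraries each, giving 8 groups and 24 libraries. RNA was taken from 3 independent differentiations. ESCs were kept in 2i medium. Neural precursor cells (NPCs) were collected after 7 days in N2B27 medium, and the cells of the 2 genotypes were plated at different densities. PSA-NCAM+ cells, which carry a surface marker of neuronal commitment, were purified with antibody-coated beads on day 10. Mature neurons were replated on poly-ornithine and laminin on day 7 and kept for 14 more days in N2B27 with ascorbic acid and cAMP. The libraries are bulk RNA, in which fewer cells of a type and less RNA per cell cannot be told apart.

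Ionotropic glutamate receptors are ligand-gated cation channels built from 4 subunits, and they carry most fast excitatory transmission in the brain. AMPA receptors open and close fastest. The GRIA2 subunit, once its messenger RNA has been edited at the glutamine/arginine (Q/R) codon, makes them nearly impermeable to calcium. NMDA receptors need the GRIN1 subunit, which is combined with GRIN2 subunits, and they pass calcium when glutamate binds to an already depolarized membrane. Kainate receptors modulate transmission on both sides of the synapse. GRIK1 and GRIK2 form channels by themselves, whereas GRIK5 binds glutamate with high affinity but needs such a subunit to reach the membrane. Every Gria gene carries a pair of neighbouring exons, flip and flop, that are usually spliced in as alternatives and set how quickly the channel desensitizes. Grin1 has cassette exons near both ends of its protein.

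The 24 libraries held between 32974432 and 104466886 gene counts, and levels are given as CPM, the counts scaled to one library total. Libraries of 1 group correlated with each other at a mean r of 0.990 to 0.994 outside the PSA-NCAM+ stage and of 0.957 to 0.983 within it, where slow/slow replicate 1 stood furthest apart. A single-codon change cannot be checked from gene counts. The 7 neuronal markers in the table (Tubb3, Rbfox3, Syn1, Snap25, Dcx, Stmn2 and Nefl) summed to 3970 to 4296 CPM in WT neurons and to 3406 to 3643 CPM in slow/slow neurons, so neuronal RNA was present in both. Map2, the eighth neuronal marker listed, and Sox1, a progenitor marker, were not analysed here. No listed marker was at 0 in all 3 neuron libraries of a genotype, although Cx3cr1 (microglia) was at 0 in single libraries of both genotypes and S100b (astrocytes) in a slow/slow library. The 4 mesenchymal markers summed to 211 to 266 CPM in WT neurons and 549 to 585 CPM in slow/slow neurons, and the 3 progenitor markers to 349 to 422 and 579 to 649 CPM.

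In WT cells the receptor genes followed different courses through differentiation. Grin1 was already present in ESCs, at 12.8, 15.1 and 16.6 CPM, fell to 3.39, 3.37 and 3.07 CPM in NPCs, measured 4.50, 2.10 and 2.00 CPM in PSA-NCAM+ cells, and reached 87.2, 74.9 and 77.1 CPM in neurons. Grik5 rose at the first step, from 7.47, 7.55 and 8.50 CPM in ESCs to 59.4, 61.2 and 57.5 CPM in NPCs, and stood at 186, 168 and 179 CPM in neurons. Gria2 had no count in any WT NPC library and reached 118, 98.9 and 99.9 CPM in WT neurons. The other 7 genes were below 4 CPM in every WT library of ESCs and NPCs, and all were higher in neurons.

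**Figure D1:**
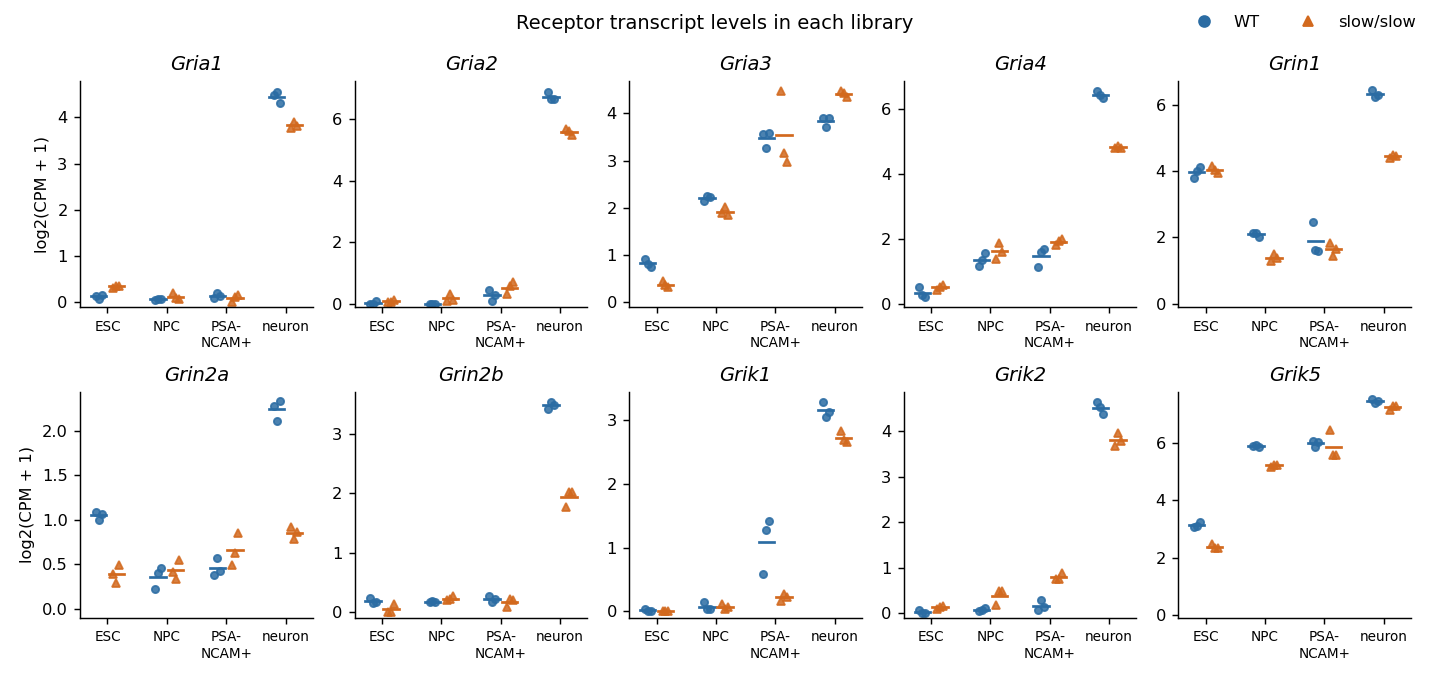
Level of each of the 10 receptor genes, as log2(CPM + 1), in every library at the 4 stages, with circles for WT, triangles for slow/slow and a line at the mean of 3 libraries. Grin1 has levels well above 0 in ESCs of both genotypes, Grik5 rises from NPCs on, and the other genes are highest in neurons.

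Between NPCs and neurons, 10 of 10 receptor genes rose in WT cells, where 41.4% of all genes tested were higher and 38.9% lower. The median change of the 10 was 6.03 on the log2 scale, and the 10 rose also with upper-quartile scaling, which moved the split of all genes from 6876 higher and 6460 lower to 5710 and 7787. Gria1 rose by 8.66 and Grik2 by 8.59, from means of 0.049 and 0.054 CPM in WT NPCs, near the limit of detection, so these sizes are imprecise. Gria2 was at least 6375-fold higher, counted against 3 reads over the NPC libraries. The smallest rises were those of Gria3 (1.88) and Grik5 (1.58). In slow/slow cells 10 of 10 also rose, where 38.4% of all genes were higher and 36.6% lower, with a median of 3.90. There Gria2 rose by 8.59, Gria1 by 6.98 and Grin2a, the smallest, by 1.19. Gria2 and Gria1 were also low in slow/slow NPCs, at means of 0.134 and 0.092 CPM.

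The earlier steps were mixed. From WT ESCs to NPCs, 3 of the 10 rose and 2 fell, where 34.0% of all genes were higher and 31.6% lower. Gria3 rose by 2.22, Gria4 by 2.48 and Grik5 by 2.92, while Grin1 fell by 2.18 and Grin2a fell by 1.88 on the log2 scale. In slow/slow cells 6 rose and 2 fell at this step (background 33.9% higher, 28.4% lower). Gria3 (3.19), Gria4 (2.31) and Grik5 (3.10) rose here too, Grik2 rose by 1.57, and Gria1 (-1.38) and Grin1 (-3.25) fell. The other 2 that rose were near the limit of detection in slow/slow ESCs. Grin2b had 26 counts in NPCs against 3 in ESCs, a ratio of 6.80 with an exact 95% interval of 2.08 to 35.1 for counting error, and Grik1 was at least 2.10-fold higher. The rise of Grik2 was not called without slow/slow ESC replicate 1 or slow/slow NPC replicate 2 or 3 (FDR up to 0.0674), nor that of Grik1 without slow/slow NPC replicate 1 (FDR 0.0724).

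From NPCs to PSA-NCAM+ cells, 3 of the 10 rose in WT cells (background 21.8% higher, 19.5% lower) and 6 rose in slow/slow cells (background 22.5% higher, 19.8% lower). In WT cells these were Gria2 (at least 13.4-fold), Gria3 (1.49 on the log2 scale) and Grik1 (4.50). In slow/slow cells Gria2 (1.95), Gria3 (2.11), Grik1 (1.60), Grik2 (1.37), Grik5 (0.73) and Grin2a (0.75) rose. Without slow/slow NPC replicate 1 the slow/slow count was 2, and with only the groups compared in the fit it was 1. Grik1 was also not called without slow/slow NPC replicate 2 or 3 or slow/slow PSA-NCAM+ replicate 2 or 3 (FDR up to 0.127), and Grin2a was also not called without slow/slow NPC replicate 2 or slow/slow PSA-NCAM+ replicate 2 or 3 (FDR up to 0.237).

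Levels of different genes were compared per length, as CPM per kilobase of transcript (CPM/kb). In WT neurons Grik5 was first at 46.9 CPM/kb, followed by Grin1 at 19.0, Gria4 at 15.9 and Gria2 at 15.6, and Grin2a was last at 0.782. The ranges of Gria4 and Gria2 overlapped, so their order was not resolved. In slow/slow neurons Grik5 was again first at 40.2 CPM/kb, but Gria2 (7.01) came second, ahead of Gria4 (5.07) and Grin1 (4.97), whose ranges overlapped. Gria3 held place 8 of the 10 in WT neurons, at 2.60 CPM/kb, and had moved up to place 5 in slow/slow neurons, at 3.96. The order was different before neurons formed. Grin1 was first in WT ESCs at 3.53 CPM/kb with Grik5 second at 2.07, and Grik5 led in NPCs (15.7 in WT, 9.63 in slow/slow) and in PSA-NCAM+ cells (16.7 and 16.0).

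**Figure D2:**
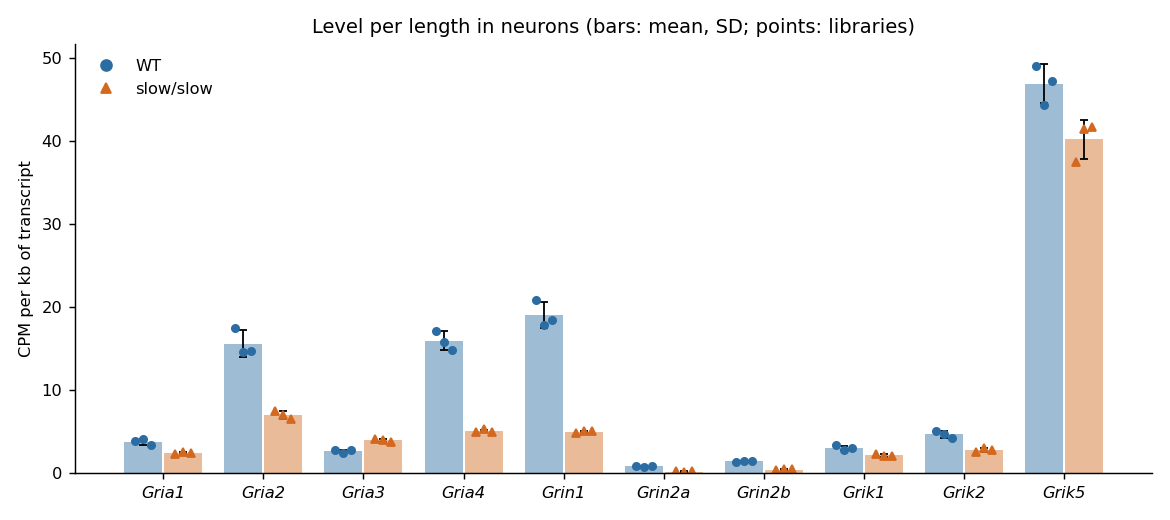
Level per length (CPM/kb) of the receptor genes in neurons, as bars at the mean of 3 libraries from 0, with the SD and a point per library, WT beside slow/slow. Grik5 is the highest gene in both genotypes, and the bars of Grin1, Gria4 and Gria2 are those with the largest drop in CPM/kb.

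The question put to the genotype comparison is how a slow polymerase affects the transcripts that define each stage. In neurons, 7 of the 10 receptor genes were lower in slow/slow than in WT cells, where 28.4% of all genes tested were lower and 23.4% higher. The other 3 (Gria3, Grik1 and Grik5) were not called. The model takes its spread from all 8 groups. In a fit of the neuron libraries alone these 3 were called too, Gria3 as higher (FDR 5.94e-06) and Grik1 (0.00229) and Grik5 (0.0183) as lower. The share of all genes called in that fit is not given here. The 3 slow/slow and 3 WT neuron libraries did not overlap for 10 of the 10 genes, against 75.6% of all genes in either direction. The median difference of the 10 genes was -0.95 on the log2 scale and that of all genes was -0.055. Upper-quartile scaling in place of TMM moved the median of all genes to 0.085 and their split from 3898 higher and 4728 lower to 5056 and 3486. With that scaling 5 receptor genes were lower, the 7 without Gria1 and Grik2, and Gria3 was higher. Differences below are given as log2 of slow/slow over WT with 1 SE.

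Among the 10 genes, the 3 NMDA receptor genes had the lowest ratios in neurons. Grin1, the obligatory subunit, measured 87.2, 74.9 and 77.1 CPM in WT neurons and 20.2, 21.3 and 20.98 CPM in slow/slow neurons, a difference of -1.94 ± 0.21 (FDR 2.32e-07). Every slow/slow library was thus far below the lowest WT library. Grin2b, the GRIN2 subunit that predominates in immature neurons, measured 9.79, 10.7 and 10.3 CPM against 2.40, 3.06 and 3.07 CPM (-1.85 ± 0.27, FDR 1.23e-05). Grin2a, which gains weight as neurons mature, measured 3.85, 3.32 and 4.04 CPM against 0.894, 0.722 and 0.822 CPM (-2.20 ± 0.27, FDR 1.00e-06). All 3 NMDA receptor genes described here were therefore lower in every slow/slow library than in any WT library. Summed per length, these 3 genes went from 21.2 ± 1.54 CPM/kb (SD, n = 3) in WT to 5.53 ± 0.17 in slow/slow neurons. The share of Grin1 in that sum was 89.7% in WT and 90.0% in slow/slow, with Grin2b at 6.56% and 6.94% and Grin2a at 3.69% and 3.08%. Sum and shares leave out the other NMDA receptor genes, Grin2c, Grin2d, Grin3a and Grin3b, which are counted in a list below. An antisense gene, Grin1os, shares 1307 of the 9700 exonic bases of Grin1, and whether counting used strand is not given in the sources used here, so the count of Grin1 may include some of its reads.

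Of the 4 AMPA receptor genes, 3 were lower in slow/slow neurons. Gria4 measured 92.5, 85.1 and 80.2 CPM in WT and 26.8, 28.3 and 26.9 CPM in slow/slow neurons (-1.65 ± 0.21, FDR 2.34e-06). Gria2, the subunit that limits calcium entry, measured 118, 98.9 and 99.9 CPM against 50.9, 47.6 and 44.0 CPM (-1.15 ± 0.26, FDR 0.00121). Neither gene had a slow/slow library that reached the range of the WT libraries. Gria1 measured 21.3, 22.6 and 18.9 CPM against 12.6, 14.0 and 13.1 CPM (-0.66 ± 0.24, FDR 0.0291). This smaller difference was not called after leaving out any 1 of 5 of the 6 neuron libraries, all but WT replicate 3 (FDR 0.0569 to 0.0943), nor under upper-quartile scaling (FDR 0.0856). Gria3 had the opposite sign, at 13.9, 12.1 and 14.0 CPM in WT and 21.1, 20.6 and 19.3 CPM in slow/slow neurons. All 3 slow/slow libraries were above the WT libraries, but the difference of 0.61 ± 0.27 did not pass the threshold (FDR 0.0623). It did with upper-quartile scaling (0.75, FDR 0.0254) and in a fit of the neuron libraries alone (0.67, FDR 5.94e-06).

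The AMPA receptor genes summed to 37.9 ± 2.83 CPM/kb in WT and to 18.4 ± 0.71 in slow/slow neurons. Their shares of this sum differed between the genotypes. Gria3 made up 6.89 ± 0.67% in WT and 21.5 ± 0.27% in slow/slow neurons, and Gria4 42.1 ± 0.70% and 27.6 ± 1.04%. The shares of Gria1 (9.89 ± 0.94% and 12.9 ± 0.80%) and Gria2 (41.1 ± 1.36% and 38.1 ± 1.57%) were closer. Shares of RNA within a set of genes do not depend on the total depth of a library. They were not tested.

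The kainate receptor genes had a median difference of -0.49 in neurons, against -0.91 for the AMPA and -1.94 for the NMDA receptor genes. Grik2, which can form channels without other subunits, measured 23.9, 22.1 and 19.8 CPM in WT and 11.8, 14.5 and 12.8 CPM in slow/slow neurons (-0.75 ± 0.28, FDR 0.0325). Its call was lost when any 1 of the 6 neuron libraries was left out (FDR 0.0507 to 0.105) and under upper-quartile scaling (FDR 0.0861). Grik1 measured 8.73, 7.27 and 7.77 CPM against 6.14, 5.44 and 5.29 CPM (-0.49 ± 0.33, FDR 0.219). Grik5, the high-affinity subunit, measured 186, 168 and 179 CPM against 142, 157 and 158 CPM (-0.22 ± 0.16, FDR 0.239). For both genes the slow/slow libraries were below the WT libraries, and both were called only when the fit was restricted to the neuron libraries (FDR 0.00229 for Grik1 and 0.0183 for Grik5). The 3 kainate receptor genes described here summed to 54.6 ± 2.80 CPM/kb in WT and to 45.1 ± 2.42 in slow/slow neurons, of which Grik5 made up 86.0% and 89.1%.

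**Figure D3:**
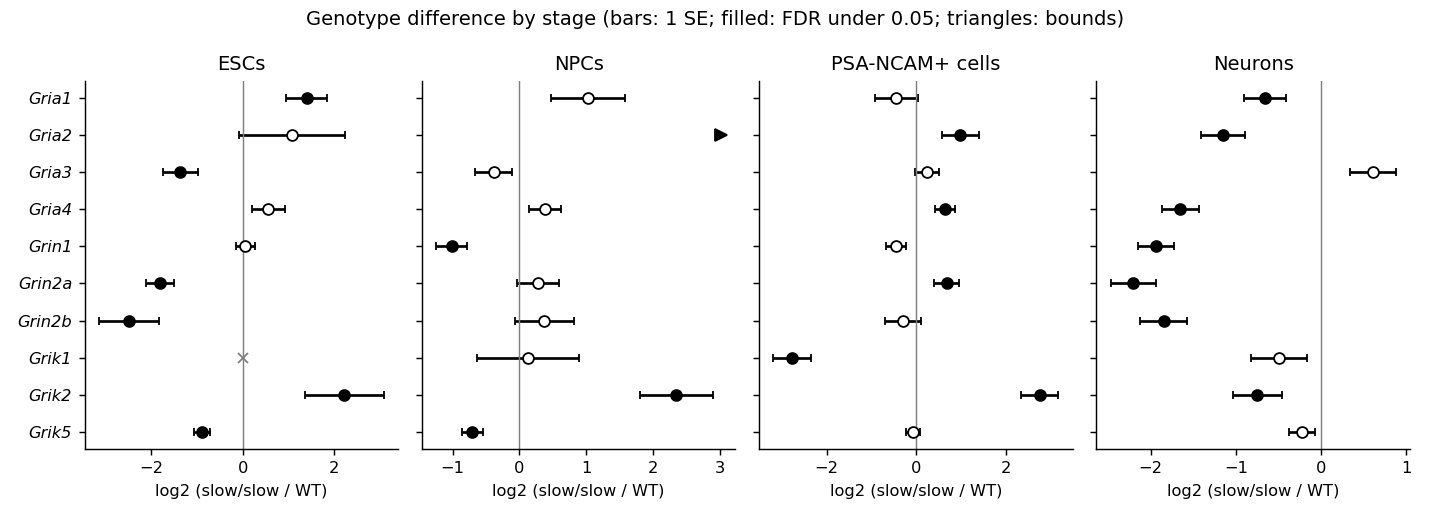
Difference between genotypes (log2 slow/slow over WT, with 1 SE) for each receptor gene at the 4 stages, filled where FDR is below 0.05. A triangle marks the bound for Gria2 in NPCs and a cross marks Grik1 in ESCs, which has too few counts for a fold. In neurons the 3 Grin genes and Gria4 lie furthest below 0 and Gria3 lies above it.

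Markers of other cells also differed between the genotypes in neurons. The 4 mesenchymal markers and the 3 progenitor markers were all higher in slow/slow neurons. Of the 7 neuronal markers, Syn1, Snap25, Stmn2 and Rbfox3 were lower and Tubb3, Dcx and Nefl were not called. The oligodendrocyte lineage list split, with Olig1 falling from a mean of 38.4 to 0.218 CPM (-7.36) and Olig2 from 22.8 to 0.883 CPM (-4.69), while Cspg4 (2.97), Sox10 (2.92) and Pdgfra (2.07) rose and Mbp was not called. Its 6 markers summed to 70.1 to 91.4 CPM in WT and 48.5 to 71.4 CPM in slow/slow neurons. The 5 astrocyte markers summed to 166 to 205 CPM in WT and 84.4 to 96.2 CPM in slow/slow neurons, a sum made up mostly of Slc1a3. Gfap, Aldh1l1 and Slc1a3 were lower, and Aqp4 was higher (1.19). Of the endoderm markers, summing to 48.7 to 56.5 and 29.5 to 49.2 CPM, Foxa2 was lower and Sox17, Gata4 and Gata6 were higher. Of the pluripotency markers, summing to 88.9 to 119 and 62.5 to 69.5 CPM, Pou5f1 was lower and Nanog, Esrrb and Zfp42 were higher. The microglial markers summed to under 6 CPM in every neuron library, and Csf1r was higher (2.74). The part of these markers in the receptor differences was not tested.

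In ESCs, where most receptor genes were close to 0, 2 of the 10 were higher (background 18.5%) and 4 lower (background 21.9%) in slow/slow cells. Of the lower ones, Grik5 had a clear level in WT, whereas Gria3 and Grin2a were low there too. Grik5 measured 7.47, 7.55 and 8.50 CPM against 4.59, 4.09 and 4.06 CPM (-0.88 ± 0.18, FDR 0.000442), and Gria3 measured 0.896, 0.746 and 0.683 CPM against 0.362, 0.286 and 0.248 CPM (-1.36 ± 0.38, FDR 0.00759). Grin2a measured 1.12, 1.00 and 1.10 CPM against 0.317, 0.225 and 0.403 CPM (-1.80 ± 0.31, FDR 9.09e-05). None of these 3 genes had overlapping groups, which held for 6 of the 10 members in ESCs. The share of all genes without overlap was not computed for ESCs, so this count has no background to stand beside. Grin2b had 23 counts over the WT and 3 over the slow/slow libraries, a ratio of 6.15 with an exact 95% interval of 1.86 to 32.0 (FDR 0.00499). Gria1 was higher, at 0.249, 0.286 and 0.279 CPM in slow/slow and 0.106, 0.0574 and 0.126 CPM in WT ESCs (1.40 ± 0.44, FDR 0.0159). Without WT replicate 2 its FDR was 0.0535. Grik2 was called higher from 12 counts against 3 (ratio 4.99, interval 1.35 to 27.5, FDR 0.0467), and that call was lost without any 1 of 5 of the 6 libraries, all but WT replicate 1. Grin1, the most abundant receptor gene of ESCs per length, measured 16.7, 15.4 and 14.2 CPM in slow/slow cells beside a WT range of 12.8 to 16.6 CPM, a difference of 0.06 (FDR 0.843). Neuronal markers summed to 218 to 264 CPM in WT and 344 to 406 CPM in slow/slow ESCs, progenitor markers to 399 to 406 and 356 to 358 CPM, astrocyte markers to 52.8 to 60.6 and 20.7 to 22.0 CPM, and mesenchymal markers to 42.1 to 45.0 and 15.2 to 18.8 CPM. Their part in the receptor differences was not tested.

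In NPCs, 2 of the 10 were higher (background 29.3%) and 2 lower (background 27.4%) in slow/slow cells. Grin1 measured 3.39, 3.37 and 3.07 CPM in WT and 1.45, 1.84 and 1.60 CPM in slow/slow NPCs (-1.02 ± 0.23, FDR 0.000903). Grik5 measured 59.4, 61.2 and 57.5 CPM against 35.2, 37.3 and 36.9 CPM (-0.70 ± 0.16, FDR 0.000831). Both were thus lower in every slow/slow library, and the share of all genes without overlap was not computed for NPCs. Grik2 was higher, at 0.129, 0.406 and 0.394 CPM in slow/slow against 0.0416, 0.0453 and 0.0750 CPM in WT NPCs (2.35 ± 0.54, FDR 0.00113). Gria2 had 5, 10 and 4 counts in slow/slow NPCs and none in the WT libraries, at least 8.08-fold higher (FDR 0.00301). Neuronal markers summed to 99.2 to 107 CPM in WT and 274 to 315 CPM in slow/slow NPCs, progenitor markers to 272 to 288 and 334 to 361 CPM (Pax6 at a mean of 4.30 and 40.9 CPM), pluripotency markers to 1785 to 1851 and 1083 to 1194 CPM (Esrrb at 478 and 93.1 CPM), and mesenchymal markers to 68.0 to 82.8 and 28.8 to 36.9 CPM. The part of these markers in the receptor differences was not tested.

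In PSA-NCAM+ cells, 4 of the 10 were higher (background 28.6%) and 1 lower (background 28.1%) in slow/slow cells. The kainate receptor genes Grik1 and Grik2 differed in opposite directions. Grik2 measured 0.694, 0.693 and 0.852 CPM in slow/slow and 0.0463, 0.214 and 0.0977 CPM in WT cells (2.76 ± 0.42, FDR 1.40e-05). Grik1 measured 0.123, 0.203 and 0.175 CPM against 0.497, 1.42 and 1.68 CPM (-2.77 ± 0.41, FDR 1.90e-05). Neither gene had overlapping groups, and the share of all genes without overlap was not computed for PSA-NCAM+ cells. Gria4 measured 2.53, 2.78 and 2.98 CPM in slow/slow against 1.18, 2.00 and 2.20 CPM in WT cells (0.64 ± 0.23, FDR 0.0225). Gria2 (0.99 ± 0.41, FDR 0.0499) and Grin2a (0.68 ± 0.29, FDR 0.0483) were close to the threshold and their groups overlapped. Each of these last 3 calls was lost without 1 of several libraries: Gria4 without WT replicate 1 or slow/slow replicate 3 (FDR 0.131 and 0.0609), Gria2 without WT replicate 2 or 3 or slow/slow replicate 2 or 3 (0.0990 to 0.207), and Grin2a without WT replicate 1 or 3 or slow/slow replicate 2 or 3 (0.0588 to 0.298). None of the 3 was called when only the PSA-NCAM+ libraries were fitted (FDR 0.183 to 0.267).

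Samples with the same replicate number deviated together in PSA-NCAM+ cells, so the blocked values are given here. With the replicate block, Gria2 had an FDR of 0.0583. With the block applied within PSA-NCAM+ cells only, a fit added after seeing the data, Gria2 (FDR 0.0354), Gria4 (0.00424) and Grin2a (0.0336) were called and Grin1 was lower by -0.35 (0.0333). Slow/slow replicate 1 decided the values of Gria3 and Grik5. It held 21.3 CPM of Gria3 against 7.97 and 6.88 CPM in the other slow/slow libraries, and 87.7 CPM of Grik5 against 46.8 and 47.1 CPM. With it Gria3 differed by 0.23 (FDR 0.470) and Grik5 by -0.07 (FDR 0.733), and without it by -0.46 (FDR 0.00346) and -0.43 (FDR 5.15e-05). Neuronal markers summed to 81.7 to 113 CPM in WT and 227 to 607 CPM in slow/slow PSA-NCAM+ cells. The WT range overlapped that of WT NPCs, 99.2 to 107 CPM. Progenitor markers summed to 194 to 253 and 444 to 547 CPM, and pluripotency markers to 1163 to 1494 and 447 to 583 CPM. Mesenchymal markers varied between libraries, at 189 to 517 CPM in WT and 144 to 661 CPM in slow/slow cells. So did microglial markers, at 3.50 to 34.0 and 0.677 to 27.0 CPM. The part of these markers in the receptor differences was not tested.

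Whether the genotype difference itself changed between stages was tested with an interaction term, in which the NPC and neuron libraries above are used again. From NPCs to neurons it moved downward for 7 of the 10 genes and upward for 1, where 30.4% of all genes tested moved downward and 24.7% upward. With upper-quartile scaling the split of all genes went from 4112 upward and 5049 downward to 5084 and 3786, and Grik5 was also called, upward by 0.67 (FDR 0.0172). Grik2 moved by -3.09 ± 0.61 (FDR 0.000272), from higher in slow/slow NPCs to lower in slow/slow neurons. Grin2a (-2.48 ± 0.41, FDR 4.39e-05), Grin2b (-2.22 ± 0.52, FDR 0.00115) and Gria4 (-2.04 ± 0.32, FDR 2.30e-05) were not called in NPCs and were lower in neurons. Grin1 was lower at both stages, and further so in neurons (-0.92 ± 0.31, FDR 0.0153). The term for Gria2 (-7.07 ± 1.46, FDR 0.000517) rests on the WT NPC libraries without a count and is not a measure of size. Gria1 moved by -1.68 ± 0.61 (FDR 0.0250), but by -0.94 (FDR 0.363) without slow/slow NPC replicate 1, and it was also not called without WT NPC replicate 1 or 2 (FDR 0.0537 and 0.0597). Gria3 moved upward by 0.99 ± 0.39 (FDR 0.0350), a call lost in 9 of the 12 fits that left out 1 library (FDR 0.0523 to 0.0752). Grik1 (-0.62, FDR 0.564) and Grik5 (0.48, FDR 0.0710) were not called. From NPCs to PSA-NCAM+ cells, 1 gene was called, moving downward (background 7.04% downward, 7.52% upward). It was Grik1, by -2.90 ± 0.92 (FDR 0.0414), with an FDR of 0.0583 under the replicate block, of 0.00553 with the block within PSA-NCAM+ cells, and a call lost in 8 of the 12 fits without 1 library. With the block within PSA-NCAM+ cells 4 genes were called, the others being Grik5 (0.58, FDR 0.00498), Grin1 (0.67, FDR 0.0183) and Gria2 (-4.91, FDR 0.0477), the last again resting on WT NPC libraries without a count.

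Exon inclusion was measured as percent spliced in (PSI), the share of a gene's junction reads at an exon that include it. Read depth limited it to neurons for most of these genes. Of 41 exon events, 28 passed the filters on reads and junction balance in all 3 WT neuron libraries and 15 in all slow/slow ones. The numbers were 2 and 1 in ESCs, 5 and 4 in NPCs, and 5 and 4 in PSA-NCAM+ cells. An exon was called different where mean PSI differed by over 10 points with a probability over 0.95 that the sign was right. In neurons 1 of 15 tested events was called, where 3.55% of all tested exon events were. It was the flip exon of Gria2.

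The exons that this result turns on are shown from the GRCm38 genome with the GENCODE M21 annotation, to which the mm9 events were matched by exon length and neighbouring splice sites and not by converting coordinates. The first is the flip exon of Gria2 at chr3:80690404-80690518 (minus strand) and the next its flop partner at chr3:80691320-80691434. Both are coding exons of 115 bases. Capitals mark the bases at which the exons of the pair differ.
Gria2 flip exon: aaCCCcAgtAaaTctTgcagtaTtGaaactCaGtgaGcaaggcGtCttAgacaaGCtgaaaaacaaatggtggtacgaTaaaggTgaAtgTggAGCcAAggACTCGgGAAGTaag
Gria2 flop exon: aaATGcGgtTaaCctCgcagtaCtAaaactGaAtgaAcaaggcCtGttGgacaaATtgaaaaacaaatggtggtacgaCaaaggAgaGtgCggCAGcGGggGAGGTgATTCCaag
The flip and flop exons differ at 36 of 115 bases in Gria1 and in Gria2, at 32 in Gria3 and at 31 in Gria4, an identity of 68.7% to 73.0%. The same exon of different Gria genes is closer, with 9 to 14 differing bases among flip exons and 6 to 14 among flop exons.

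The Gria2 flip exon (mm9 chr3:80494326-80494440) was included at a PSI of 63.7, 69.8 and 66.2 in WT neurons and of 86.2, 83.7 and 84.8 in slow/slow neurons. All slow/slow libraries were above all WT libraries, and the share of all exon events without overlap was not computed. The means were 66.6 ± 3.07 and 84.9 ± 1.27, a difference of 18.4 points (probability 0.9999, and FDR 0.00288 with limma on the logit scale). Between 326 and 536 reads stood behind each WT value and between 85 and 226 behind each slow/slow value. The Gria2 flop exon was included at 42.5, 35.4 and 37.4 in WT neurons and at 42.5, 45.7 and 40.3 in slow/slow neurons. Slow/slow replicate 3, with 61 reads, did not pass the filters on reads and junction balance, so the flop exon was not tested with all libraries. Without that replicate the difference of 5.72 points was not called. The PSI of flip and flop were computed from separate sets of junctions and need not sum to 100. Flop was not lower in slow/slow neurons, so the higher inclusion of flip was not shown to be an exchange for flop. A 41-base exon of Gria2 was included at 2.05, 0.56 and 1.65 in WT and at 19.7, 15.4 and 16.5 in slow/slow neurons. It failed the filter on balance between its junctions in WT neurons and was not tested.

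The flip exons of the other Gria genes gave no call. Gria3 used flip almost exclusively, at a PSI of 100, 100 and 97.5 in WT and 100, 94.2 and 94.4 in slow/slow neurons (99.2 ± 1.46 and 96.2 ± 3.28). Gria1 flip was at 83.7, 86.5 and 80.4 in WT neurons and at 95.8, 87.3 and 100 in slow/slow neurons, of which replicate 3, with 18 reads, failed the filter. Gria4 flip was at 63.6, 70.4 and 66.7 and at 76.9, 61.2 and 63.5, and slow/slow replicate 3 failed as well. The WT and slow/slow ranges overlapped for Gria3 and Gria4 flip. Gria4 flop was at 24.3, 23.4 and 22.6 in WT neurons, and at 23.4, 17.8 and 16.1 in slow/slow neurons, which did not pass the filters. Without slow/slow replicate 3, 26 events could be tested and 1 was called.

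**Figure D4:**
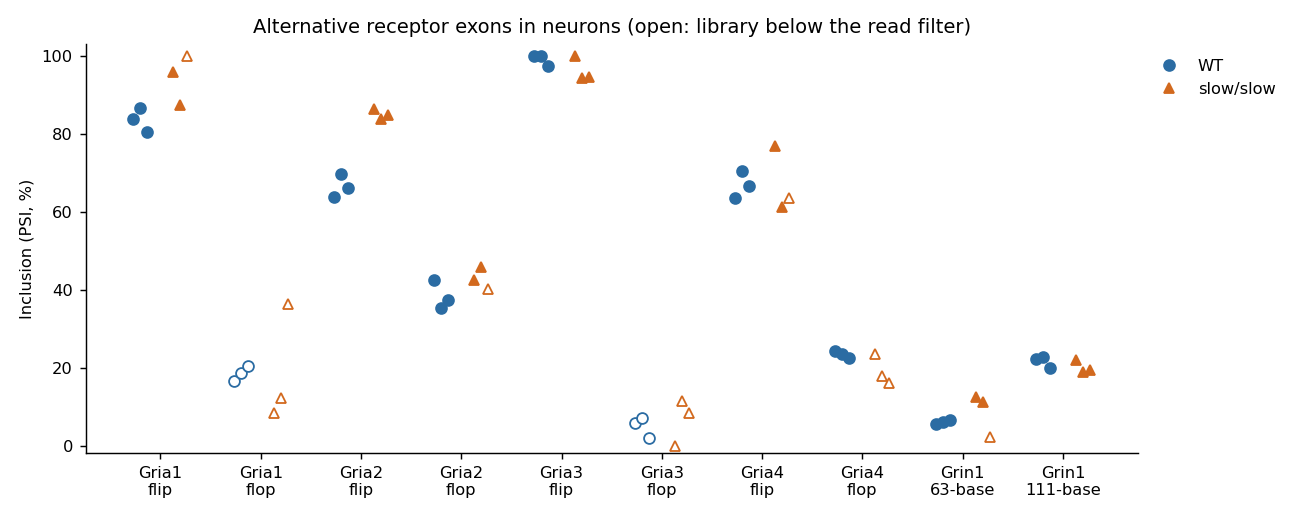
PSI (percent) in each neuron library for the flip and flop exons of the 4 Gria genes and for the 63-base and 111-base exons of Grin1, WT beside slow/slow. Open symbols mark values that did not pass the filters on reads and junction balance. The slow/slow points of Gria2 flip lie between 83.7 and 86.2, above the WT points, while the filled points of the Grin1 111-base exon overlap.

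Grin1 has a cassette exon of 111 bases in its C-terminal tail (C1, GRCm38 chr2:25294438-25294548, minus strand) and one of 63 bases in its extracellular N-terminal domain (N1, chr2:25311343-25311405). They are shown because they are the measured alternative exons of the NMDA receptor genes.
Grin1 111-base exon: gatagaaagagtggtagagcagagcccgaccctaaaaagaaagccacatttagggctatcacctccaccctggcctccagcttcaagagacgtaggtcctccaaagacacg
Grin1 63-base exon: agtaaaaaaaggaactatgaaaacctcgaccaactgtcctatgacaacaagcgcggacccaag
The 111-base exon was included at 22.3, 22.8 and 19.9 in WT neurons and at 22.0, 18.8 and 19.4 in slow/slow neurons. The groups overlapped, with means of 21.7 ± 1.53 and 20.0 ± 1.67 and a difference of -1.63 points (probability 0.570). The 63-base exon was at 5.64, 6.18 and 6.54 in WT neurons and at 12.5, 11.3 and 2.33 in slow/slow neurons, where replicate 3 had 22 reads and failed the filter. Without it the difference of 5.78 points was not called (probability 0.933). In ESCs the 63-base exon was at 67.6, 84 and 76 in WT and at 73.7, 61.5 and 79.0 in slow/slow cells, and no value passed the filters. The 111-base exon was at 45.5, 47.2 and 66.7 and at 57.4, 57.5 and 61.1 there. It failed the filters in WT replicate 2 and slow/slow replicate 3. The difference of these exons between ESCs and neurons was not tested. Among the kainate receptor genes, the 258-base exon of Grik1 was at 94.8, 100 and 94.0 in WT and at 94.9, 100 and 81.3 in slow/slow neurons (96.3 ± 3.25 and 92.0 ± 9.69, not called). The other 11 of the 15 tested events had a mean PSI above 95 in both genotypes.

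No exon event of these genes was called between genotypes in ESCs (1 tested, background 0.809%), NPCs (4 tested, 2.93%) or PSA-NCAM+ cells (4 tested, 0.966%), nor between neurons and NPCs in WT (5 tested, 6.48%) or slow/slow cells (4 tested, 3.72%). In these 5 comparisons limma on the logit scale also called 0, and the probability passed 0.95 for 1 event under 10 points. This was a 360-base exon of Grik5, at a mean PSI of 1.93 in WT NPCs and 0.31 in WT neurons (probability 0.967, limma FDR 0.00821). All events tested between genotypes in NPCs and PSA-NCAM+ cells were those of Grik5, and the 1 tested in ESCs was of Grin1. For the other genes a change of splicing before the neuron stage was not detectable at this depth.

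Retained introns were scored in neurons in the same way, and 80 of the 149 introns passed the filters. Of these, 1 was called, where 0.260% of all tested introns were. It was a 440-base intron of Gria2 (mm9 chr3:80511181-80511620), retained at 4.88, 5.91 and 4.02% in WT neurons and at 18.6, 20.98 and 13.6% in slow/slow neurons. The means were 4.94 ± 0.95 and 17.7 ± 3.77, a difference of 12.8 points (probability 0.999, limma FDR 0.000129). Every slow/slow library was above every WT library, and the share of all introns without overlap was not computed. With a threshold of 15 points the intron was not called. The same intron lies just before the 371-base exon that holds the Q/R codon, on GRCm38 chr3:80706888-80707258 (minus strand). The last part of that exon, chr3:80706888-80706943, is shown with the genomic glutamine codon that editing recodes in capitals. It ends 23 bases before the end of the exon.
Gria2 Q/R codon window: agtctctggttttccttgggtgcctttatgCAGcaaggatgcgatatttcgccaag

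The 4231-base intron that follows the Q/R exon (mm9 chr3:80506579-80510809) was at 5.01, 3.87 and 6.33% in WT neurons and at 24.1, 26.1 and 21.6% in slow/slow neurons. The groups did not overlap, but reads at its ends were unbalanced in WT replicate 3 and slow/slow replicate 2 (p of 0.0114 and 0.0228), so it was not tested. The 1052-base intron after the flip exon was at 17.7, 17.6 and 14.3% in WT and at 27.9, 23.7 and 20.0% in slow/slow neurons (probability 0.910, not called). A 388-base intron of Gria2 was retained at a mean of 51.5% in WT and 56.9% in slow/slow neurons and was not called. The other 10 introns of Gria2 were at a mean of under 1% in both genotypes. Outside Gria2, a 277-base intron of Grik5 went from 4.58 to 11.3% (probability 0.996), under the 10-point threshold. Tests were possible for 13 of 14 introns of Gria2, 18 of 19 of Grik5 and 16 of 19 of Grin1, but for 1 of 15 of Grik1 and for none of Grin2a and Grin2b, whose counts were lower. Editing itself cannot be read from these tables. Of the ADAR family, Adarb1, which edits the Q/R codon, was lower in slow/slow neurons at 28.2 against 41.5 CPM (-0.56), as were Adar, the other active editing enzyme, at 127 against 200 CPM (-0.66) and Adarb2, a member without known editing activity, at 13.3 against 24.8 CPM (-0.89).

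The other genes of glutamate signalling were counted by list in neurons. Of 8 further ionotropic receptor genes, 5 were lower and 2 higher in slow/slow neurons, with a median difference of -0.94. Grin3a, an NMDA subunit that lowers calcium flux, was at 15.6 against 62.4 CPM (-2.001) and Grid1, a delta receptor gene, at 21.5 against 51.3 CPM (-1.25). The higher ones were the NMDA subunits Grin2c (1.98, at 1.87 against 0.477 CPM) and Grin2d (0.73). Of 14 auxiliary subunits, which traffic AMPA and kainate receptors and tune their gating, 11 were lower and the other 3 not called (median -1.04). Shisa9 had the largest difference of that list (-3.28, at 0.755 against 7.40 CPM), followed by Gsg1l (-1.66).

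Of 19 postsynaptic scaffold genes, 14 were lower and 1 higher (median -0.68). They include Dlgap1 (-1.40), a partner of the PSD-95 family, and Nsf (-1.31), an ATPase that binds the GRIA2 tail, while Homer3 was higher (0.68). Of 7 genes of glutamate transport and synthesis, 4 were lower and 1 higher. The vesicular transporter Slc17a8 (-1.83) and the neuronal uptake carrier Slc1a1 (-1.41) were lower and the vesicular transporter Slc17a7 was higher (1.31), from 0.344 to 0.864 CPM. Of 7 metabotropic receptor genes, 3 were lower, among them Grm5 (-2.40) and Grm7 (-2.25), and Grm2 was higher (2.06). All 3 ADAR family genes were lower. These counts stand beside the 28.4% of all genes that were lower and the 23.4% that were higher.

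The counts of the same lists before the neuron stage are given beside the shares of all genes, which were 18.5% higher and 21.9% lower in ESCs, 29.3% and 27.4% in NPCs, and 28.6% and 28.1% in PSA-NCAM+ cells. Differences between stages or from these shares were not tested. Of the 8 further ionotropic receptor genes, 6 were lower in slow/slow ESCs, 5 were lower in NPCs, and 2 were higher and 4 lower in PSA-NCAM+ cells. Of the 14 auxiliary subunits, 2 were higher and 4 lower in ESCs, 5 higher and 1 lower in NPCs, and 6 higher in PSA-NCAM+ cells. Scaffold genes numbered 1 higher and 7 lower in ESCs, 7 and 4 in NPCs, and 8 and 3 in PSA-NCAM+ cells. Genes of glutamate transport and synthesis numbered 2 higher and 3 lower in ESCs, 5 and 2 in NPCs, and 4 and 2 in PSA-NCAM+ cells. Metabotropic receptor genes had 1 higher in ESCs, 1 higher in NPCs, and 3 higher and 2 lower in PSA-NCAM+ cells, and the ADAR family had 1, 2 and 3 higher. All these comparisons use the same libraries as those of the receptor genes.

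Most receptor genes are long, and gene span is a feature that their choice by symbol did not use. By the GENCODE M21 annotation Grik2 spans 693.9 kb (chr10:49094833-49788766), Grin2b 460.3 kb (chr6:135713233-136173511), Grin2a 427.7 kb (chr16:9567898-9995560) and Grik1 394.4 kb (chr16:87895900-88290265). Gria4 spans 378.3 kb (chr9:4417896-4796234), Gria1 318.9 kb (chr11:57011387-57330244), Gria3 277.7 kb (chrX:41400854-41678601) and Gria2 121.4 kb (chr3:80681450-80802835). Only Grik5 (62.5 kb, chr7:25009849-25072346) and Grin1 (28.0 kb, chr2:25291181-25319187) are shorter than 100 kb. Of the 8 longer members, 6 were lower in slow/slow neurons. Of all 2310 tested genes over 100 kb, 43.5% were lower and 17.9% higher, with a median difference of -0.27, against 28.7% and 23.6% and a median of -0.056 for the 16312 tested genes with an annotated span. Among the members the order of span was not the order of difference. Grin1, the shortest, had the second largest drop, and Grik2, the longest, had one of the smallest called drops. Gria3, with a span of 277.7 kb, had a positive difference that was not called. The part of gene span in the receptor differences was not tested.

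**Figure D5:**
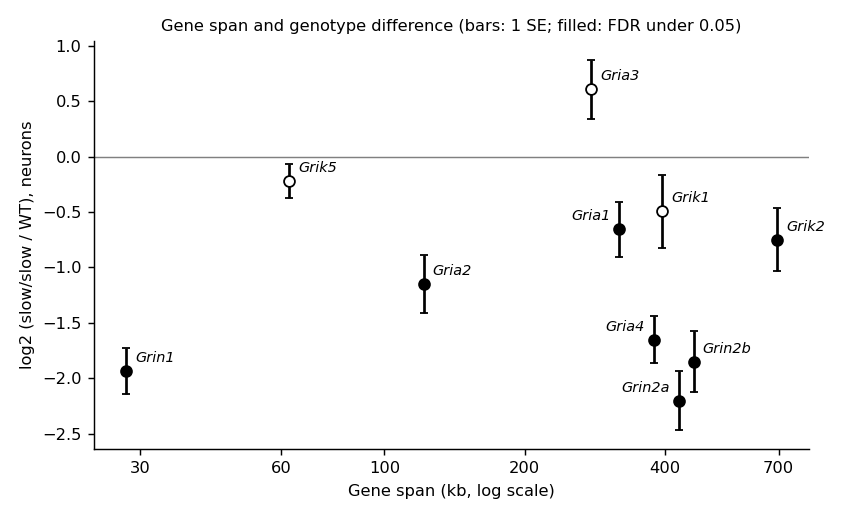
Genotype difference in neurons (log2 slow/slow over WT) against gene span (kb, log axis) for the 10 receptor genes, with bars of 1 SE and filled symbols where FDR is below 0.05. Grin1, the shortest at 28.0 kb, lies at -1.94, and Grik2, the longest at 693.9 kb, at -0.75.

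The genes with the most similar course were found by Pearson's r of log2(CPM + 1) over the 24 libraries, which share stages and genotypes, so r is a description only. For Gria2 they were Rab9b, Nrxn3 and Adarb2 (r of 0.999 each), and for Gria1 Sstr1 (0.998), Lrrc4c (0.997) and Gpr123 (0.997). Gria3 was most like Ctso (0.990), Ddr1 (0.988) and Vgll4 (0.983), and Gria4 most like Pak3 (0.996), Dscam (0.995) and Inpp5f (0.994). For Grin2b they were Dnahc9, Ferd3l and Lrfn2 (0.997 each), for Grik2 Lrrtm1, Gdap1 and Rufy3 (0.998 each), for Grik1 Slc2a13 (0.985), Tshz2 (0.985) and Ttpal (0.984), and for Grik5 Ptpdc1 (0.991), Nelf (0.988) and Gdpd5 (0.987). The likeness was lower for Grin1 (1500031L02Rik at 0.974, P4htm at 0.971 and Hap1 at 0.962) and Grin2a (Dock10 at 0.946, 5330417C22Rik at 0.945 and Cdh26 at 0.942), the 2 members with a higher level in WT ESCs than in WT NPCs that was called. Between members, Gria1 and Gria2 had r of 0.995 and Gria3 and Grik5 of 0.939, whereas Grin1 had r of 0.113 with Gria3 and of 0.129 with Grik5.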

How the data were processed

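Poly(A)+ RNA was sequenced by the authors as stranded 75-base read pairs, and per the labels reads were converted with bcl2fastq 2.17.1.14 and referred to mm9. The authors deposited raw counts per gene, analysed in edgeR, and group mean RPKM values. From vast-tools they deposited per-library PSI as percent and a text quality score with read numbers. Columns of the authors' own fold changes, FDR values and splicing calls were not used. Strand use in counting is not given in the sources used here.

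Of 22667 listed genes, 1114 had no values and 16627 of the others passed filterByExpr. Counts were scaled by TMM and tested with edgeR 4.0.16 (R 4.3.3) quasi-likelihood F tests in 1 model of 8 groups (16 residual degrees of freedom), adjusted over all tested genes (FDR, threshold 0.05). CPM uses TMM-scaled library sizes. CPM/kb uses the length implied by the authors' mean RPKM. Genes at 0 in a group were bounded at 3 counts over the group, and intervals cover counting error only. Replicates come from 3 independent differentiations of 1 line per genotype. The spread behind the edgeR p-values was estimated from all 8 groups together, so the more variable PSA-NCAM+ libraries also enter the tests at other stages. No pair of libraries was identical.

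Exon events were scored with beta posteriors per library, pooled over replicates, over the whole table. Passing values needed vast-tools read scores SOK, OK or LOW and a balanced score, and introns at least 15 reads and a balance p of at least 0.05. limma 3.58.1 and DESeq2 1.42.0 served as alternatives, with other scalings, filters, thresholds, leave-one-out fits and a replicate block. Same-numbered WT and slow/slow samples of a stage were correlated in their deviations from group means. The values were 0.502, 0.364 and 0.354 in PSA-NCAM+ cells and -0.113 to 0.056 elsewhere, so numbers paired the genotypes in PSA-NCAM+ cells only. Whether a number links libraries of different stages was not checked. Scripts were tested on simulated data. Figures were drawn with matplotlib 3.10.9.

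Members, lists and tests were chosen with earlier results of these data known. All 10 members are named, and of each other list up to 2 called genes per direction with the largest differences in neurons. Named exon events are those called, or passing in neurons with a mean PSI of 5 to 95. The Gria3 flip exon, the Gria2 41-base exon, the Grik5 360-base exon and all introns are named outside this rule, after their values were seen.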

Additional observations from a re-analysis of the deposited data

Results flagged for a closer look

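For 9 receptor genes the difference between slow/slow and WT cells differed between stages by an interaction term across all genes. These were 8 genes from NPCs to neurons and 1 from NPCs to PSA-NCAM+ cells. Of all genes tested, 30.4% moved downward and 24.7% upward in the first comparison, and 7.04% and 7.52% in the second. From NPCs to neurons the log2 difference moved by -1.68 for Gria1, -7.07 for Gria2, 0.99 for Gria3, -2.04 for Gria4, -0.92 for Grin1, -2.48 for Grin2a, -2.22 for Grin2b and -3.09 for Grik2. From NPCs to PSA-NCAM+ cells it moved by -2.90 for Grik1. The value of Gria2 rests on WT NPC libraries without a count. Those of Gria1, Gria3 and Grik1 were not called without some single libraries.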

How the results depend on the processing

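Counts of called receptor genes moved most in PSA-NCAM+ cells. The 5 genes called between genotypes there became 3 with DESeq2 size factors, 2 when only the groups compared were fitted and 3 with upper-quartile scaling, and 2 to 8 when 1 library was left out. The 6 called from NPCs to PSA-NCAM+ cells in slow/slow cells became 1 with only the groups compared and 2 to 6 with 1 library left out. The single gene whose difference moved from NPCs to PSA-NCAM+ cells became 3 with the DESeq2 Wald test, 0 with only the groups compared, 0 with the replicate block, 4 with the block within PSA-NCAM+ cells and 0 to 2 with 1 library left out. The cause was not tested. With 1 library left out the counts were 4 to 7 in ESCs, 4 in NPCs, 5 to 6 in neurons, 5 to 7 and 7 to 8 from ESCs to NPCs in WT and slow/slow cells, 3 to 4 from NPCs to PSA-NCAM+ cells in WT, 10 from NPCs to neurons in both genotypes, and 6 to 8 for the interaction in neurons. Outside PSA-NCAM+ cells the numbers did not pair the genotypes. The replicate block there gave 5 called genes in ESCs (without Grik2, FDR 0.0532), 4 in NPCs and 8 in neurons (with Gria3, FDR 0.0453). The 1 called intron became 0 with a threshold of 15 points. In ESCs no exon event was left with the 2 stricter read scores, so that fit gave no value.

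With 1 library left out, some values that were not called with all libraries changed sign. Between genotypes these were Grin1 in ESCs (-0.036 to 0.15), Grik1 in NPCs (-0.45 to 0.83, with -0.17 in 2 fits), and Grik5 (-0.43 to 0.088, and 0.084) and Grin1 (-0.66 to 0.044) in PSA-NCAM+ cells. Between stages these were Grin2b (-0.29 to 0.066) from WT ESCs to NPCs, Grin2a in slow/slow cells (-0.020 to 0.39, and -0.011), and from NPCs to PSA-NCAM+ cells Gria4 (-0.018 to 0.41) and Grin1 (-0.67 to 0.031, and 0.013) in WT and Gria1 (-0.90 to 0.29) in slow/slow cells. In the interaction to PSA-NCAM+ cells they were Gria3 (-0.068 to 0.90) and Grik2 (-0.062 to 1.08, and -0.045), and in neurons the Grik1 258-base exon (-8.22 to 1.16). Grik1 between genotypes in ESCs (-3.41 to 0) and Gria2 from WT ESCs to NPCs (-4.49 to 0) reached 0 where no count was left, with no change of sign. Gria3 in PSA-NCAM+ cells ran from -0.46, called, without slow/slow replicate 1 to 0.52. Upper-quartile scaling moved the median of all genes from NPCs to neurons in WT from 0.038 to -0.23 and that of the interaction in neurons from -0.087 to 0.097. PSI and retention are limited by depth and by the filters on balance, and low-count genes by depth. Of 41 exon events, 28 passed in WT neurons and 15 in slow/slow neurons.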
